A study of Mus musculus with 6 samples.

Results

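The genes of the synaptic vesicle release machinery were followed in RNA from the ventral dentate gyrus of mice given chronic restraint stress and of mice left unstressed. Members were taken by gene symbol. They were the numbered synaptotagmins (Syt), syntaxins (Stx), vesicle-associated membrane proteins (Vamp), the SNAP-25 family with Snap91, the synapsins (Syn) and synaptophysin (Syp). Rab3 GTPases, complexins (Cplx), syntaxin-binding proteins such as Munc18 and tomosyn (Stxbp), RIM proteins (Rims) and Munc13 proteins (Unc13) were also taken. This choice found 68 of the 24062 symbols in the count tables. The symbol rule used no measured value, but it was chosen with earlier results of these data known. 63 of the 68 had enough counts to be tested.

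Neurotransmitter is stored in synaptic vesicles that synapsins hold in reserve and Rab3 proteins help bring to the active zone. There RIM proteins gather vesicles and calcium channels, and Munc13 proteins open syntaxin so that it can pair with SNAP-25 and the vesicle SNARE under the guidance of Munc18. Complexins clamp and assist the assembled SNARE complex until calcium binds a synaptotagmin and the membranes fuse. Most steps are served by a widely used family member and by less abundant paralogs that mark particular neurons, and in the dentate gyrus the granule neurons, mossy cells and interneurons each use their own mix.

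The stress group held 3 libraries from male mice of the C57black 6 strain under chronic restraint stress, in which an animal is confined repeatedly. The control group held 3 libraries from unstressed males of the same strain, and the labels name no other treatment or allele in either group. The libraries are described as biological replicates, the labels do not say whether each holds 1 animal or several, and the sources used here give neither ages nor the length of the stress. The RNA was total RNA without ribosomal RNA, prepared with a stranded kit and sequenced as a single pool over several lanes.

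Gene counts per library lay between 8305753 and 10107953. Members took 1.23% to 1.31% of the gene counts of a library, and 4 of them, Snap25, Syt1, Syp and Cplx2, made up 39.1% to 42.1% of the members' counts. Stress replicate 1 stood apart from the other libraries in markers of tissue. Its 8 granule neuron markers summed to 566 CPM (counts scaled to a common library size), with 1155 and 1288 CPM in stress replicates 2 and 3 and 999.6 to 1173 CPM in the controls. Its 7 striatal markers summed to 609 CPM, with 69.4 and 70.1 CPM in the other stress libraries and 77.1 to 97.6 CPM in controls. Its 8 choroid plexus markers summed to 4799 CPM, with 33.2 and 28.7 CPM in the other stress libraries and 24.8 to 26.5 CPM in controls. The 6 pan-neuronal markers summed to 2905 to 3024 CPM in stress and 2899 to 2962 CPM in control libraries, and no marker in the lists was at 0 in every library. Results are therefore also given without stress replicate 1.

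No member passed the threshold of 0.05 on the adjusted p of edgeR's quasi-likelihood test, and 4 of 14058 tested genes did, or 0.0285%. 2 vesicle release genes, Syt2 and Rims3, had lower counts in stress in a second count model, DESeq2, where 0.484% of tested genes were lower at the same threshold. limma-voom called 0 members. The median log2 fold change, stress over control, was -0.0023 over the 63 tested members and 0.0038 over all tested genes, with 30 members positive and 33 negative. At an unadjusted p under 0.05 in edgeR's test, 10 members (15.9%) were lower in stress, beside 4.85% of all tested genes. Among them were Syt2, Rims3, Syn3, Rab3b, Unc13c, Vamp1, Syt10, Rims4 and Syt14. 1 member (1.59%), Syt12, was higher at that level, beside 3.86% of all tested genes. In 12 members (19.05%) every stress library lay below every control library, beside 7.84% of all tested genes. Among these were Syt2, Rims3, Syn3, Rab3b, Unc13c, Syt10, Rims4, Syt14, Rims2, Vamp5 and Stx17. In 3 members (4.76%), Syt12, Snap29 and Stxbp5l, every stress library lay above every control, beside 6.76% of all tested genes. Without stress replicate 1, 8 of 64 tested members (12.5%) were lower at an unadjusted p under 0.05, beside 6.13% of tested genes, and 4 (6.25%), Cplx2, Syt17, Syt3 and Unc13a, were higher, beside 5.4%. The 51 tested members outside the 12 smallest p stood at 0.02 in the median, with 29 positive. Most of the 12 taken out were negative, so this shift follows from the split by p and gives no separate result.

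**Figure D1:**
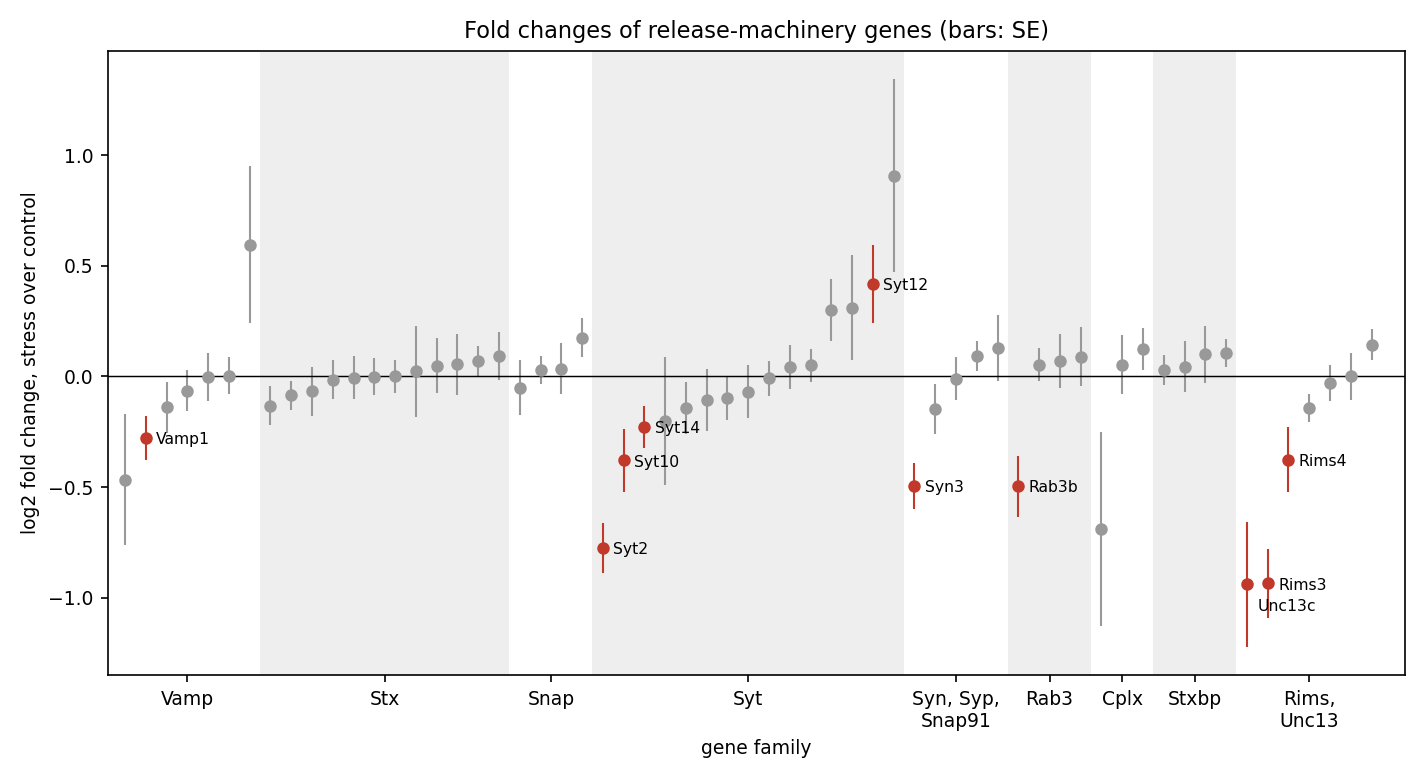
Log2 fold changes from edgeR (stress over control, y axis) of the tested members reported here, ordered by value within each gene family (x axis). Bars are SE from a separate limma-voom fit. Red points with names have an unadjusted p under 0.05 in edgeR's test. Unc13c (-0.94), Rims3 (-0.93) and Syt2 (-0.77) lie lowest, and Syt12 (0.42) is the named point above 0. None of them passed the adjusted threshold.

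Levels were first set side by side within each role, as CPM per kilobase of exon. Among all members Snap25, the plasma membrane SNARE of neurons, had the highest level, with 252 ± 45.7 CPM per kilobase in stress and 245 ± 12.6 in control libraries (SD, n = 3 each). Cplx2, the main complexin of forebrain neurons, averaged 213 ± 25.8 CPM per kilobase in stress and 196 ± 11.1 in control libraries. Syp, a vesicle membrane protein, averaged 194 ± 7.19 CPM per kilobase in stress and 182 ± 11.4 in control libraries. These 3 genes, together with the synchronous calcium sensor Syt1 at 173 ± 11.1 CPM per kilobase in stress and 174 ± 13.8 in control libraries, were the 4 most abundant members per kilobase, and Rab3a came next with 156 ± 5.44 CPM per kilobase in stress and 149.9 ± 11.4 in control libraries. Over the 6 libraries, the ranges of neighbours in this order of 5 genes overlapped. Vamp2, the main vesicle SNARE of forebrain synapses, led its class with 49.1 ± 1.75 CPM per kilobase in stress and 54.2 ± 9.62 in control libraries. Stx12, an endosomal syntaxin, led the syntaxins with 38.2 ± 1.46 CPM per kilobase in stress and 40.5 ± 1.23 in control libraries. Rims1 led the active zone class with 29.8 ± 0.895 CPM per kilobase in stress and 29.8 ± 4.79 in control libraries. When the longest transcript was used in place of the union of exons, Rims2 led the active zone class in place of Rims1. The order at the top also changed to Snap25, Syp, Syt1, Rab3a and Cplx2, with means over all 6 libraries of 219 CPM per kilobase for Rab3a and 204 for Cplx2. None of these leaders had an unadjusted p under 0.05.

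**Figure D2:**
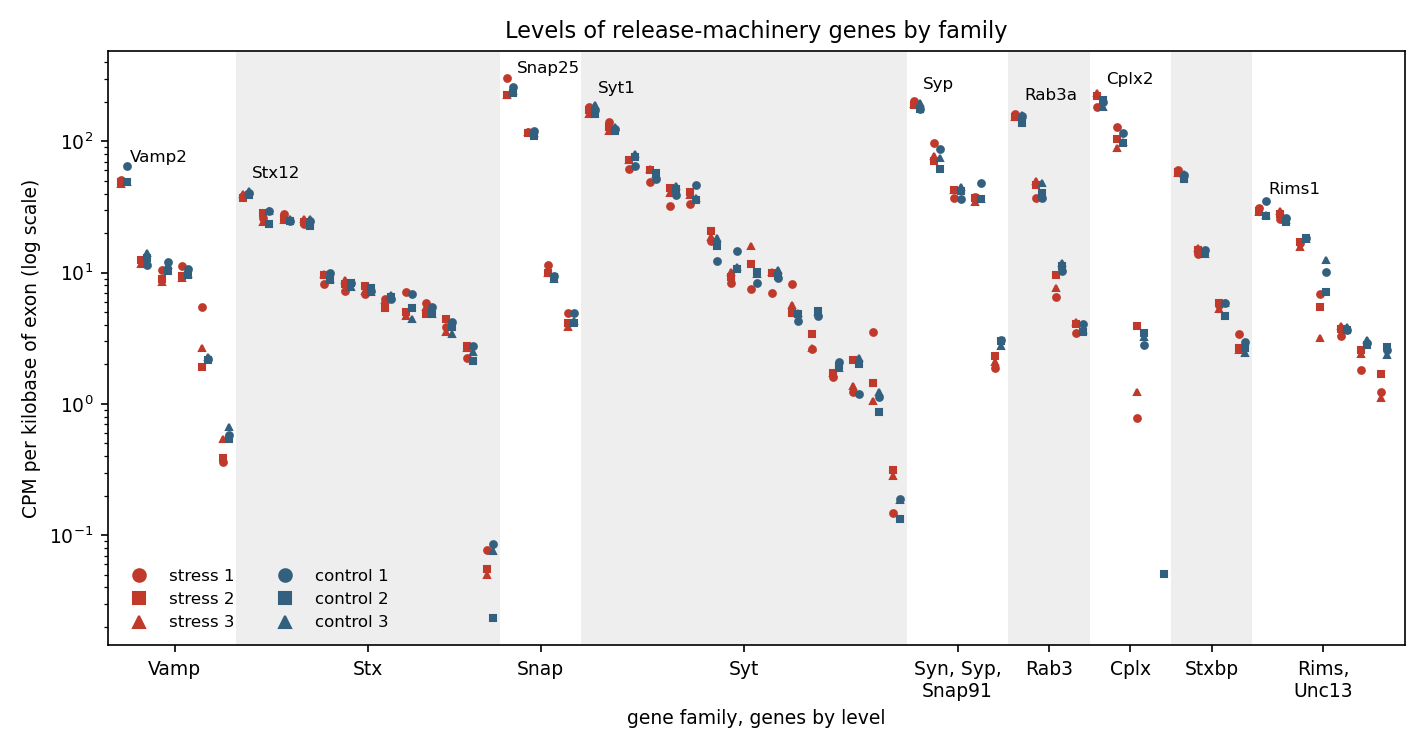
Levels of the members reported here that have an annotated length in every library, as CPM per kilobase of exon on a log axis (y axis), by gene family and ordered by level within it (x axis). Red marks are the 3 stress libraries and blue marks the 3 controls, the highest gene of each class described in the text is named, and values of 0 have no mark. The highest mark is Snap25 in stress replicate 1, at 304 CPM per kilobase, and most members show stress and control marks on top of each other.

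Synaptotagmins sense calcium or guide membrane traffic, and 15 of the 17 in the table were tested. 6 had a positive and 9 a negative log2 fold change, with a median of -0.07. Syt1 was at 1533, 1449 and 1349 CPM in stress and 1451, 1338 and 1568 CPM in control libraries, and its groups overlapped, with a log2 fold change of -0.0084 (SE 0.08). Its paralog Syt2, the fast calcium sensor of brainstem neurons and of many parvalbumin interneurons, was at 20.1, 26.1 and 20.3 CPM in stress and 35.8, 39.2 and 38.4 CPM in control libraries. The highest Syt2 value in stress lay below the lowest control value. Syt2 averaged 22.1 ± 3.41 CPM in stress and 37.8 ± 1.77 CPM in control libraries (SD, n = 3 each), a log2 fold change of -0.77 (SE 0.11), with an adjusted p of 0.197 in edgeR's quasi-likelihood test. Across the alternatives that adjusted p ran from 0.000469 with DESeq2 up to 0.686. Leaving out stress replicate 1 gave Syt2 -0.71 on the log2 scale and an adjusted p of 0.0400 in edgeR's test, where 0.211% of tested genes were called lower. Leaving out stress replicate 2 gave -0.91 and an adjusted p of 0.0275, where 0.182% of tested genes were called lower. In tissue RNA, fewer cells of a type and less RNA per cell cannot be told apart, here and for every other member.

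Syt2 lies on chromosome 1 at 134646677 to 134762593 on the plus strand in GENCODE M21 on GRCm38, and RefSeq's table for GRCm38.p6 gives it a promoter window at each of 2 start sites. The windows run from 250 bases before to 50 bases after the start. They are shown for those members among the 5 smallest p in edgeR's test that have one. None of these members passed the adjusted threshold in that test. Capitals mark matches on either strand to the GC box GGGCGG, the core TGACG of the cyclic AMP response element and the TATA box TATAAA.
Syt2, first start, chr1:134646362-134646661, plus strand: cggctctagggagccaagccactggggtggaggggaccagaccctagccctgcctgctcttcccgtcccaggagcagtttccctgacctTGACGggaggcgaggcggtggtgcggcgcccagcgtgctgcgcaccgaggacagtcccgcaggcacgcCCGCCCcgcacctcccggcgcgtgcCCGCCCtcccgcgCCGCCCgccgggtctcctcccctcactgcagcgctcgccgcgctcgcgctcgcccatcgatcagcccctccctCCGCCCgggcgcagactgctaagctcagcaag
Syt2, second start, chr1:134709050-134709349, plus strand: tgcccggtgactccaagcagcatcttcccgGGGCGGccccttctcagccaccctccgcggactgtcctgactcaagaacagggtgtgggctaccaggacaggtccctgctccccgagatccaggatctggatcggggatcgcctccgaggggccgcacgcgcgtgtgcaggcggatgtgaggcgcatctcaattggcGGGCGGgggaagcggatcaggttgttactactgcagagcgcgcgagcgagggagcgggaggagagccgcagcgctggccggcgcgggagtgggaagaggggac
Rims3, chr4:120854549-120854848, plus strand: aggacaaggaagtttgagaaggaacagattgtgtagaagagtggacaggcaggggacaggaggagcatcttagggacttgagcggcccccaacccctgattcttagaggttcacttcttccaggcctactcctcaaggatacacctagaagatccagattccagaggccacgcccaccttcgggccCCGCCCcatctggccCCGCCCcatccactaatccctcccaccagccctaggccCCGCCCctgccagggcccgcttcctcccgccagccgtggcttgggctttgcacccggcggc
Rab3b, chr4:108878820-108879119, plus strand: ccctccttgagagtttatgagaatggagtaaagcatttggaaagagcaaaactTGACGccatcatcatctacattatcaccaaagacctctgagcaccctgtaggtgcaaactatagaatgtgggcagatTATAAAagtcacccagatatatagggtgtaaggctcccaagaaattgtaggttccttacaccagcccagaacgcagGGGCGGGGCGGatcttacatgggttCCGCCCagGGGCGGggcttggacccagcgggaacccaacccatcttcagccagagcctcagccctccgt
Unc13c, chr9:73968988-73969287, minus strand: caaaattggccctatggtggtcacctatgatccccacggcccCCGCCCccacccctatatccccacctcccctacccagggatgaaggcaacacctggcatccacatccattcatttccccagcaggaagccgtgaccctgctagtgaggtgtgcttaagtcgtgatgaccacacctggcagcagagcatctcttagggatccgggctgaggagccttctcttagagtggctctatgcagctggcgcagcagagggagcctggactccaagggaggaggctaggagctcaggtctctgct

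The GC box occurred 4 and 2 times in the first and second Syt2 windows, 3 times in that of Rims3, 4 times in that of Rab3b, where neighbouring matches overlap by a base, and 1 time in that of Unc13c. It was present in 35.7% of the 32851 promoter windows in the table and in 69.2% of the 65 windows of the 52 members that have one. TGACG stood in the first Syt2 window and in that of Rab3b, and in 20.8% of all and 24.6% of member windows. TATAAA stood in the Rab3b window, and in 13.6% of all and 4.62% of member windows. The E-box CACGTG (7.15% of all and 12.3% of member windows) and the core CAGCACC of the RE1 element (7.14% and 10.8%) were also searched and stood in none of the 5 windows. The glucocorticoid response element, searched by its full consensus, stood in 0.475% of all windows and in that of 1 member, Stx17. GC content had a median of 62.3% over member windows and 52.7% over all windows. A match describes the letters of a window and is not a measured binding site.

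Syt10, a calcium sensor for growth factor secretion in olfactory bulb neurons, was at 15.4, 17.1 and 18.6 CPM in stress and 26.8, 19.7 and 20.2 CPM in control libraries. The groups did not overlap, though control replicates 2 and 3 lay close to the stress libraries, and Syt10 had a log2 fold change of -0.38 (SE 0.14; adjusted p 0.532 in edgeR's test). Syt14, which lacks calcium binding, was at 19.0, 20.5 and 20.6 CPM in stress and 25.1, 23.0 and 22.3 CPM in control libraries, a log2 fold change of -0.23 (SE 0.10). Syt12, a synaptotagmin without calcium binding that protein kinase A phosphorylates, was at 45.3, 27.4 and 31.5 CPM in stress and 23.8, 26.9 and 27.1 CPM in control libraries. All 3 stress values lay above the controls, but stress replicate 2 lay within 1 CPM of the highest control, and the log2 fold change of 0.42 (SE 0.18) was 0.18 without stress replicate 1. Exons of Syt12 overlap A930001C03Rik on the opposite strand, and the sources used here do not give the strand setting of the counting. Such overlaps are annotated for other members too, among them Syp, Rab3a, Unc13a, Syn1, Syn2, Syt6 and Snap29.

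Syt6, which was also among the 8 listed striatal markers and is left out of their sum, was at 20.6, 8.38 and 6.13 CPM in stress and 6.54, 5.10 and 7.13 CPM in control libraries. The difference sat in stress replicate 1, the library with the high striatal markers, and the log2 fold change of 0.91 (SE 0.44) was 0.21 without it. Syt17, a synaptotagmin of the secretory pathway, was at 39.2, 60.4 and 83.0 CPM in stress and 43.6, 52.6 and 51.0 CPM in control libraries. Here stress replicate 1 was the lowest of all 6 libraries, and the log2 fold change of 0.31 (SE 0.24) was 0.55 without it, with an adjusted p of 0.0920 in edgeR's test. Syt3, which takes part in AMPA receptor internalisation, was at 54.6, 64.8 and 58.4 CPM in stress and 38.0, 49.3 and 56.8 CPM in control libraries, and the groups overlapped. Syt4, Syt5, Syt7, Syt9, Syt11, Syt13 and Syt16 had log2 fold changes from -0.20 to 0.05 and overlapping groups. Syt8 had no count in any library, which allows up to 3 counts or 0.294 to 0.363 CPM, and Syt15 was at 0.764, 1.63 and 1.45 CPM in stress and 0.968, 0.686 and 0.958 CPM in control libraries. Neither was tested.

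The active zone class joins 4 RIM and 3 Munc13 genes, all tested, of which 3 were lower at an unadjusted p under 0.05 and none was higher, beside 4.85% and 3.86% of all tested genes. Its median log2 fold change was -0.14, the lowest of the 9 classes. Rims3, the short RIM3 gamma that lacks the Rab3-binding domain of the long RIM proteins, was at 9.82, 13.4 and 8.83 CPM in stress and 20.5, 21.7 and 18.9 CPM in control libraries. The groups were well apart, with averages of 10.7 ± 2.40 CPM in stress and 20.4 ± 1.37 CPM in control libraries (SD, n = 3 each). The log2 fold change of Rims3 was -0.93 (SE 0.16), with an adjusted p of 0.199 in edgeR's quasi-likelihood test and 0.0024 in DESeq2. It was -0.88 without stress replicate 1 (adjusted p 0.0603 in edgeR's test) and -1.13 without stress replicate 2 (adjusted p 0.0295), and its adjusted p ran up to 0.686 when other libraries were left out. Rims3 lies on chromosome 4 at 120854816 to 120896579 on the plus strand in GENCODE M21 on GRCm38.

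Rims4, the other short RIM, was at 8.95, 12.7 and 11.8 CPM in stress and 14.4, 13.8 and 15.2 CPM in control libraries. All stress values were below the controls, with a log2 fold change of -0.38 (SE 0.15) that was -0.24 without stress replicate 1. The long RIM proteins differed by less. Rims2 was at 175, 178 and 162 CPM in stress and 189.6, 191 and 188 CPM in control libraries, a log2 fold change of -0.14 (SE 0.06), with separate groups and an unadjusted p in edgeR's quasi-likelihood test above the 0.05 level. Rims1 was at 227, 217 and 215 CPM in stress and 260.3, 197 and 201 CPM in control libraries, with a log2 fold change of 0.0014 and overlapping groups.

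Unc13c encodes Munc13-3, a vesicle priming factor best known from cerebellar granule cells. It was at 60.3, 47.9 and 28.2 CPM in stress and 89.0, 62.3 and 109.9 CPM in control libraries. The libraries of each group were spread widely, and stress replicate 1 lay just below control replicate 2. For Unc13c this gave -0.94 on the log2 scale (SE 0.28; adjusted p 0.410 in edgeR's test). Leaving out stress replicate 1 gave -1.20 (adjusted p 0.0633), and leaving out stress replicate 3 gave -0.68. Unc13c lies on chromosome 9 at 73479422 to 73968966 on the minus strand in GENCODE M21 on GRCm38. Unc13a encodes Munc13-1, the main priming factor of glutamatergic synapses. It was at 325, 353 and 372 CPM in stress and 326, 307 and 317 CPM in control libraries, a log2 fold change of 0.14 (SE 0.07) with overlapping groups. Unc13b, or Munc13-2, was at 74.8, 84.8 and 88.5 CPM in stress and 83.4, 82.6 and 87.2 CPM in control libraries, a log2 fold change of -0.03.

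**Figure D3:**
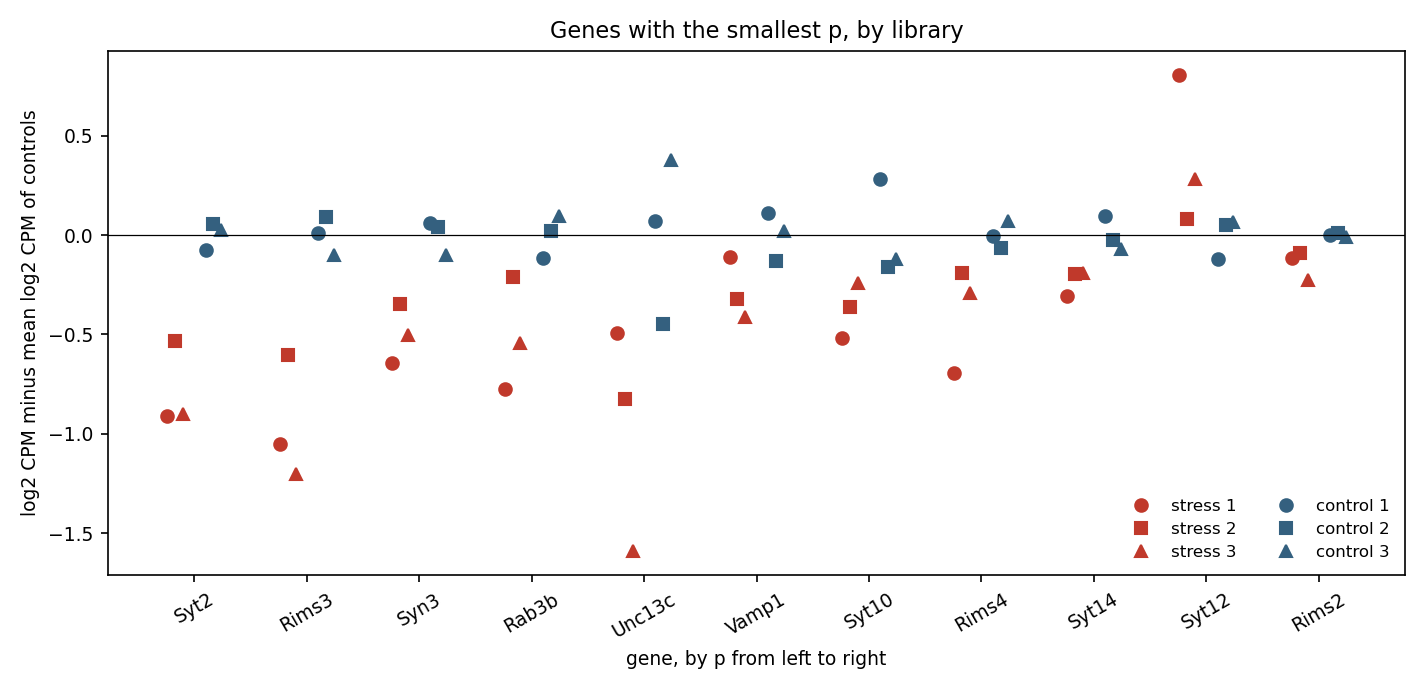
Members among the 12 smallest p in edgeR's test (x axis), each library drawn as its log2 CPM minus the mean log2 CPM of the controls (y axis). Red marks are stress and blue marks control libraries, with 1 shape per replicate number. Stress marks of Syt2 and Rims3 lie all clear of the controls, those of Unc13c are widely spread, and those of Vamp1 overlap the controls.

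Among proteins that hold and tether vesicles, Syn3, a synapsin expressed early in neuronal development and in neural progenitors, was at 23.1, 28.4 and 25.6 CPM in stress and 37.6, 37.3 and 33.7 CPM in control libraries. The groups did not overlap. The log2 fold change of Syn3 was -0.49 (SE 0.10), with an adjusted p of 0.220 in edgeR's test, and it was -0.43 without stress replicate 1. It lies on chromosome 10 at 86055125 to 86498896 on the minus strand in GENCODE M21 on GRCm38, and its exons overlap Timp3 on the other strand. Syn2 was at 676, 494 and 543 CPM in stress and 614, 429 and 524 CPM in control libraries, a log2 fold change of 0.13 (SE 0.15). Syn1 was at 124, 122 and 113 CPM in stress and 159, 119.5 and 119.7 CPM in control libraries, a log2 fold change of -0.15 (SE 0.11), and both genes had overlapping groups. Syp and Snap91, a clathrin adaptor at synapses, had log2 fold changes of 0.09 and -0.0098 with overlapping groups.

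Rab3 GTPases tether vesicles to RIM proteins, and of the 4 only Rab3b had an unadjusted p under 0.05. Rab3b, used in hippocampal interneurons for endocannabinoid-dependent depression of release, was at 22.9, 33.9 and 26.9 CPM in stress and 36.2, 39.8 and 41.8 CPM in control libraries. The groups were apart, with stress replicate 2 nearest to the controls. The log2 fold change of Rab3b was -0.50 (SE 0.14), with an adjusted p of 0.372 in edgeR's test, and it was -0.38 without stress replicate 1. Rab3b lies on chromosome 4 at 108879063 to 108943324 on the plus strand in GENCODE M21 on GRCm38, with 8030443G20Rik on the opposite strand of its exons. Rab3a was at 360.3, 339.8 and 339 CPM in stress and 344, 305 and 353 CPM in control libraries, and Rab3c at 442, 560.2 and 604 CPM in stress and 447, 483 and 579 CPM in control libraries. Both overlapped between groups, with log2 fold changes of 0.05 and 0.09, and Rab3d had 0.07.

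SNARE proteins drive the fusion itself. Snap25 was at 2067, 1522 and 1538 CPM in stress and 1762, 1596 and 1643 CPM in control libraries, with overlapping groups and a log2 fold change of 0.04 (SE 0.12). Vamp2 was at 194, 188 and 180.2 CPM in stress and 249, 185 and 185 CPM in control libraries, a log2 fold change of -0.14 (SE 0.11), with control replicate 1 high. Vamp1, the vesicle SNARE of brainstem, spinal and some fast-spiking neurons, was at 106, 91.5 and 85.8 CPM in stress and 123, 104 and 116 CPM in control libraries. Stress replicate 1 lay above control replicate 2, so the groups overlapped. The log2 fold change of Vamp1 was -0.28 (SE 0.10), an adjusted p of 0.503 in edgeR's test going with it, and it was -0.37 (adjusted p 0.0904) when stress replicate 1 was left out. Vamp8, a vesicle SNARE of secretory and blood cells, was at 12.6, 4.42 and 6.13 CPM in stress and averaged 5.10 ± 0.108 CPM in control libraries (SD, n = 3), and its log2 fold change of 0.60 (SE 0.35) was 0.06 without stress replicate 1. Vamp3, Vamp4 and Vamp7, which serve endosomal traffic, had log2 fold changes from -0.06 to 0.0034. Vamp5, a SNARE of muscle and endothelial cells, was at 0.982, 1.05 and 1.45 CPM in stress and 1.57, 1.47 and 1.81 CPM in control libraries, a log2 fold change of -0.47 (SE 0.30) on few counts.

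The 13 tested syntaxins centred on a median log2 fold change of -0.00058, and none had an unadjusted p under 0.05. Stx1a, a presynaptic target SNARE, was at 68.9, 76.1 and 64.5 CPM in stress and 79.0, 62.6 and 78.0 CPM in control libraries. The groups overlapped. Stx12 was at 122, 117 and 127 CPM in stress and 129.5, 125 and 133 CPM in control libraries, also overlapping. Stx17, a SNARE of autophagosomes, was at 37.2, 32.1 and 36.9 CPM in stress and 37.3, 38.8 and 40.3 CPM in control libraries, with groups just apart and a log2 fold change of -0.13 (SE 0.09). Stx11 and Stx19 had too few counts to be tested, with 0.208 to 0.327 CPM of Stx11 in stress and 0.0980 to 0.363 CPM in control libraries and no count of Stx19 in any library. In the SNAP-25 family Snap29, which serves autophagosome fusion, was at 39.2, 34.2 and 34.2 CPM in stress and 32.6, 31.8 and 31.0 CPM in control libraries, with a log2 fold change of 0.18 (SE 0.09). Snap23 and Snap47 had -0.05 and 0.03.

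The Stxbp genes encode syntaxin-binding proteins, among them Munc18 and tomosyn. Stxbp5l, the brain tomosyn-2 that inhibits SNARE assembly, was at 519, 497 and 489 CPM in stress and 475, 441 and 483 CPM in control libraries. Its groups were apart by a narrow gap, and the log2 fold change was 0.11 (SE 0.06). Stxbp2, Stxbp4 and Stxbp5 had 0.05, 0.10 and 0.03. Among complexins, Cplx2 was at 906, 1095 and 1148 CPM in stress and 975, 1012 and 904 CPM in control libraries, a log2 fold change of 0.12 (SE 0.10), and Cplx1 had 0.05. Cplx3, known from ribbon synapses of the retina, was at 2.29, 11.6 and 3.64 CPM in stress and 8.23, 10.2 and 9.58 CPM in control libraries. Stress replicate 2 was the highest and stress replicate 1 the lowest of the 6, and the log2 fold change of -0.69 (SE 0.44) was -1.65 without stress replicate 2. Cplx4 had 1 count, in a control library, and was not tested.

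Ratios of paralogs within a library do not depend on how libraries are scaled, and 16 pairs were compared. In 6 pairs every stress library lay below every control, and in 0 pairs above. The first genes of these pairs include Unc13c, Rims3, Syt2, Syn3 and Rab3b, whose CPM alone had every stress library below every control. The count thus partly repeats those results, and no share over all gene pairs was computed. The smallest two-sided p that 3 libraries against 3 allow in an exact permutation test is 0.10, so no pair could pass, and the lowest Benjamini-Hochberg value over the 16 pairs was 0.267. The log2 ratio of Unc13c to Unc13a was -3.01 ± 0.66 in stress and -1.90 ± 0.39 in control libraries (SD, n = 3 each; exact permutation test, p = 0.10), a difference of -1.11. That of Rims3 to Rims1 was -4.38 ± 0.32 in stress and -3.42 ± 0.24 in control libraries, a difference of -0.96. Syt2 to Syt1 stood at -6.04 ± 0.23 in stress and -5.26 ± 0.15 in control libraries, a difference of -0.77. The ratios of Syn3 to Syn2 and of Rab3b to Rab3a differed by -0.63 and -0.56. Most pairs were written with the less abundant gene first, so the place of these genes as the less abundant paralog follows from that choice. The ratio of Unc13b to Unc13a differed by -0.17, with -2.08 ± 0.03 in stress and -1.91 ± 0.05 in control libraries. Cplx3 to Cplx2 had the lowest difference, -1.13, but its groups overlapped. The other 9 pairs had overlapping groups, among them Cplx1 to Cplx2 with a difference of -0.08, Syn1 to Syn2 at -0.27 and Rab3c to Rab3a at 0.03.

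**Figure D4:**
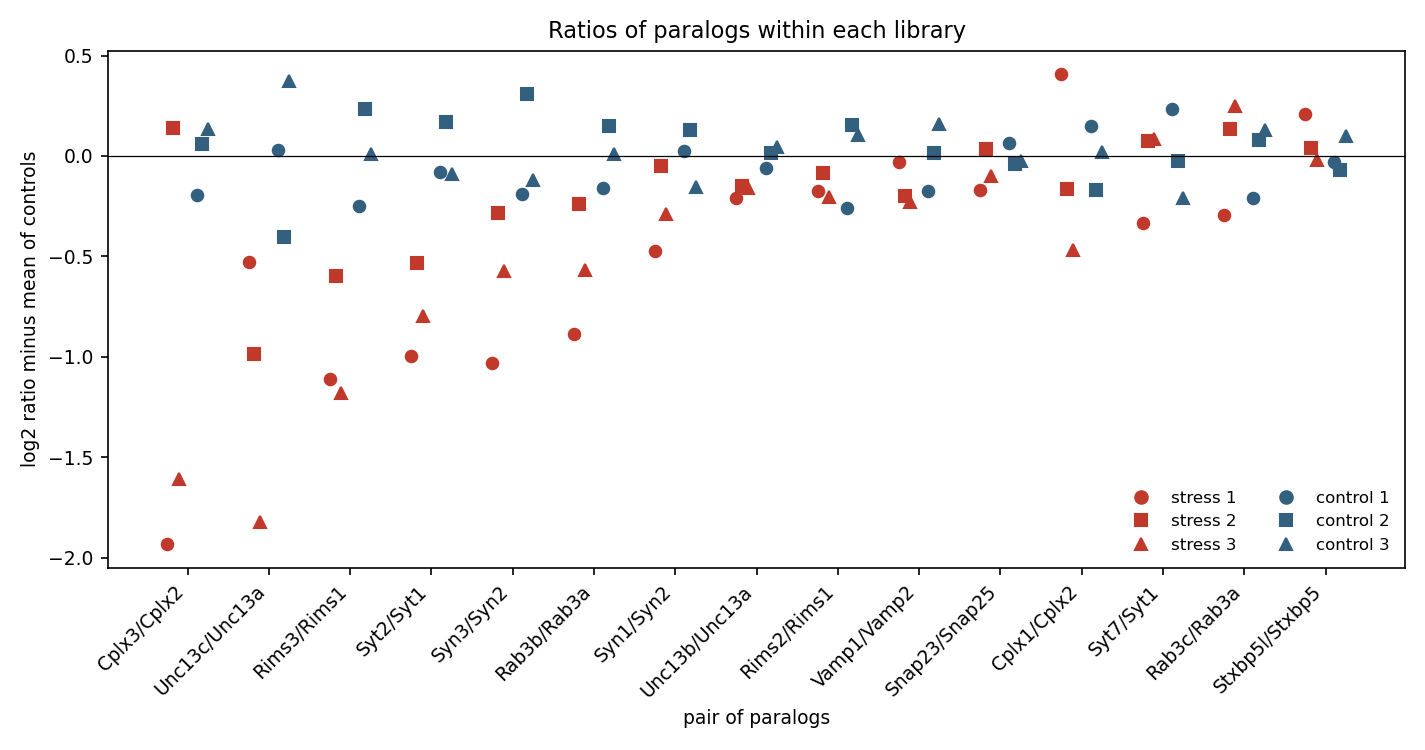
Log2 ratios of the counts of the paralog pairs reported here (x axis) in each library, drawn minus the mean of the 3 controls (y axis), with stress libraries in red and control libraries in blue. The 6 pairs from Unc13c/Unc13a to Unc13b/Unc13a with all stress marks below the controls hold Rims3, Syt2, Syn3 and Rab3b too. The others overlap, and Cplx3/Cplx2 spans the widest range in stress.

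As a share of family CPM per kilobase, Unc13c made up 14.2 ± 5.19% of Munc13 transcript in stress and 25.3 ± 4.98% in control libraries (SD, n = 3 each). Unc13a made up 75.9 ± 4.46% of it in stress and 65.1 ± 4.42% in control libraries. Rims3 held 2.67 ± 0.55% of RIM transcript in stress and 4.79 ± 0.52% in control libraries. Rab3b held 3.73 ± 0.71% of Rab3 transcript in stress and 5.41 ± 0.45% in control libraries, and Syn3 held 1.78 ± 0.37% of synapsin transcript in stress and 2.55 ± 0.42% in control libraries. Syt2 held 0.51 ± 0.06% of synaptotagmin transcript in stress and 0.87 ± 0.05% in control libraries.

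Some markers of other cells and of neighbouring tissue differed between the groups too. The marker lists were chosen with earlier results of these data known, so their shares give no independent result. The 8 listed thalamus and habenula markers summed to 177, 271 and 234 CPM in stress and 331, 391 and 386 CPM in control libraries, so that all stress libraries lay below the controls. Without Slc17a6, which belongs to vesicle filling as well, the other 7 summed to 163, 221 and 191 CPM in stress and 253, 279 and 292 CPM in control libraries. 4 of the 8, Slc17a6, Rora, Lef1 and Tcf7l2, had every stress library below every control, beside 7.84% of all tested genes. The others, Calb2, Plekhg1, Prkcd and Tac2, had overlapping groups, with log2 fold changes of -0.59, -0.23, -0.03 and 0.37. None of the 8 was at 0 in every library. Calb2 was also 1 of 4 listed mossy cell markers. These 4 summed to 140, 127 and 149 CPM in stress and 91.4, 133 and 142 CPM in control libraries. Ociad2 among them had every stress library above every control, with 0.74, beside 6.76% of all tested genes. Drd2 and Csf2rb2 had overlapping groups, with 1.91 and -0.09, and Drd2 was highest in stress replicate 1. The 8 interneuron markers summed to 1040 to 1111 CPM in stress and 1038 to 1163 CPM in control libraries. 2 of them, Gad1 and Pvalb, had every stress library below every control, beside 7.84% of all tested genes. Among the others, whose groups overlapped, Sst, Gad2, Slc32a1 and Lhx6 had log2 fold changes of 0.26, 0.18, 0.14 and 0.02, and Vip had -0.31. Pvalb was at 22.6, 24.0 and 20.4 CPM in stress and 28.0, 24.6 and 25.8 CPM in control libraries, a log2 fold change of -0.23. The 8 granule neuron markers summed to 566, 1155 and 1288 CPM in stress and 1173, 1166 and 999.6 CPM in control libraries. The 5 CA3 markers summed to 1543, 1028 and 1087 CPM in stress and 968, 827 and 972 CPM in control libraries, and without the vesicle gene Sv2b the other 4 summed to 636, 439 and 475 CPM in stress and 467, 352 and 348 CPM in control libraries, where the groups overlapped. Of 4 CA1 markers, Fibcd1 and Man1a had every stress library above every control, beside 6.76% of all tested genes. Their log2 fold changes were 1.22 and 0.56, while Wfs1 and Pou3f1 had overlapping groups, with -0.69 and 0.11. Of 5 astrocyte markers, Gja1 and Aldh1l1 had every stress library below every control, with -0.22 and -0.13, beside 7.84% of all tested genes. Aqp4, Gfap and Slc1a3 had overlapping groups, with -0.27, -0.12 and -0.15. The part of RNA from any of these cells in the members' differences was not tested.

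**Figure D5:**
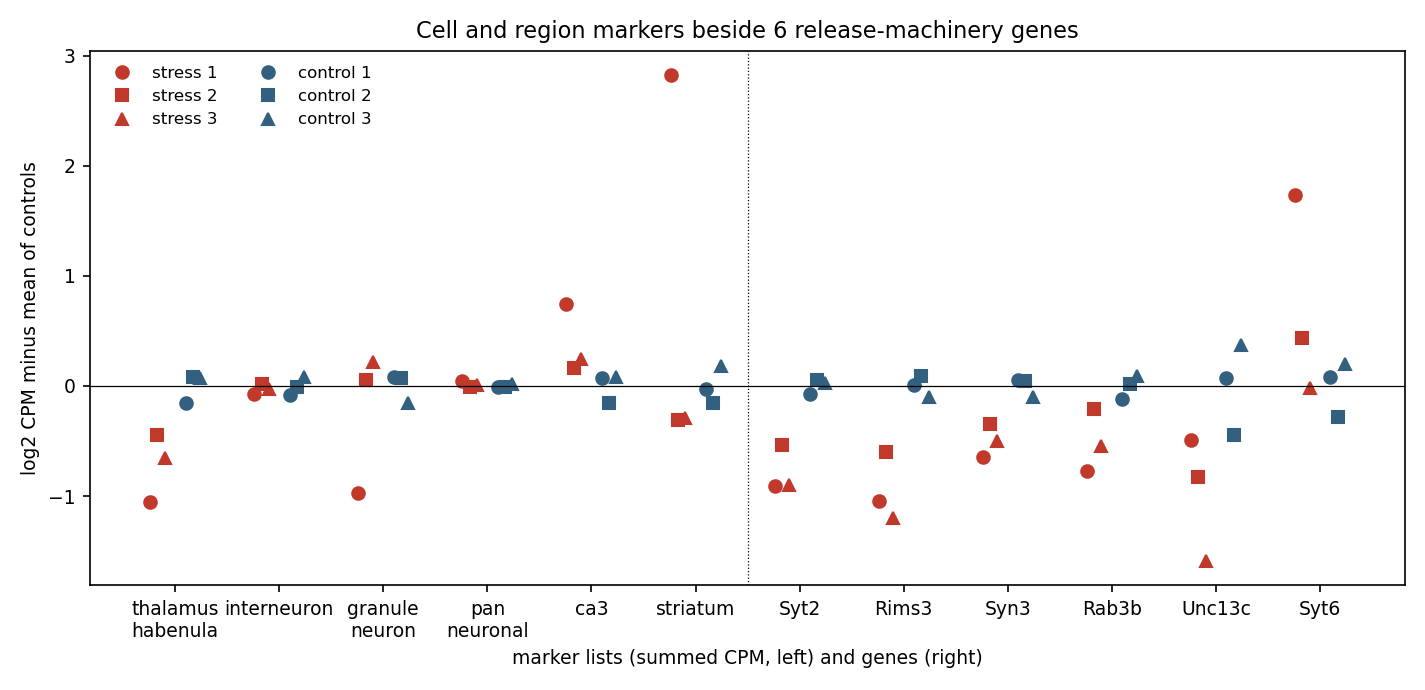
Summed CPM of 6 marker lists (left of the dotted line) and CPM of 6 members (right), each as log2 minus the mean of the controls (y axis), with stress libraries in red and control libraries in blue. The CA3 sum includes Sv2b and the thalamus and habenula sum Slc17a6. Summed thalamus and habenula markers lie below the controls in all 3 stress libraries, as do Syt2, Rims3, Syn3, Rab3b and Unc13c. Granule neuron, striatum and Syt6 marks stand apart in stress replicate 1.

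A wider list of 59 genes of vesicle filling, docking, priming and recycling that the symbol rule does not take was all tested, and 0 passed the adjusted threshold of edgeR's test. 3 were lower and 4 higher at an unadjusted p under 0.05, beside 4.85% lower and 3.86% higher of all tested genes, and the list's median log2 fold change was 0.05. Slc17a6, the vesicular glutamate transporter of subcortical neurons and 1 of the 8 thalamus and habenula markers, was at 14.1, 50.3 and 43.0 CPM in stress and 78.3, 112 and 94.1 CPM in control libraries. Stress values were all lower, with a log2 fold change of -1.41 (SE 0.38) and an adjusted p of 0.318 in edgeR's test. Slc17a7, its counterpart in cortical and granule neurons, was at 913, 903 and 927 CPM in stress and 784, 686 and 786 CPM in control libraries. Stress values were all higher, with a log2 fold change of 0.28 (SE 0.07) and an adjusted p of 0.342. Sytl2, a Rab27 effector, had a log2 fold change of -0.41 and Tprgl, a vesicle protein that binds to the active zone, 0.21, each with separate groups. Sncb, for beta-synuclein, had -0.34 and the calcium sensor gene Doc2a -0.54, each with overlapping groups. The vesicle glycoprotein gene Sv2b, also 1 of the 5 CA3 markers, was at 907, 589 and 612 CPM in stress and 501, 475 and 624 CPM in control libraries. Its highest value was in stress replicate 1.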

How the data were processed

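Whole-number counts per gene symbol were deposited, 1 table per library. Builds mm10 and GRCm38 are named per the submitters' processing notes, along with HTSeq (0.6.1), TopHat2 (2.0.9), edgeR (3.12.0), FastQC (0.11.3) and Trimmomatic (0.33). The annotation, counting options and strand setting were not given in the sources used here. Summary rows of reads outside genes (59.5% to 63.1% of listed reads) and ambiguous reads (0.211% to 0.253%) entered neither library sizes nor tests. A count of 0 allows up to 3 counts, or 0.294 to 0.363 CPM, for counting error only.

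In R 4.3.3, counts were filtered (filterByExpr), scaled by TMM and tested for group alone with the two-sided quasi-likelihood test of edgeR 4.0.16, with Benjamini-Hochberg adjustment over 14058 genes at 0.05. SE came from limma 3.58.1 voom, a separate fit whose own log2 fold changes differ for some genes with few counts. That fit gave -1.04 for Cplx3, 0.72 for Syt6 and 0.46 for Vamp8, where edgeR gave -0.69, 0.91 and 0.60. DESeq2 1.42.0, limma-voom, other scalings and filters, the replicate number as a block and leaving out each library were alternatives. Only the main edgeR fit was tested on simulated counts, and the alternatives were not. Levels per kilobase used union exon lengths of GENCODE M21, in which 67 of the 68 symbols matched (Vamp7 did not). Promoter windows came from RefSeq for GRCm38.p6 and held 52 members. All pairs of libraries differed by more than sampling noise (lowest chi-square per degree of freedom 3.07). The p-values measure the spread between these libraries.

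The members, gene lists and pairs were chosen with earlier results of these data known. Values in every library are given for members past the threshold, the 12 with the smallest p, the highest per kilobase of each class and the paralogs described. Up to 8 of the wider list with the smallest p are named. Some genes that these rules take are left out of the text and figures and are not reported here. Syt6, Vamp8, Syt17, Syt3, Snap29, Cplx3, Stxbp5l, Stx11, Syt15 and single markers were chosen after their values were seen. Counts of members at an unadjusted p under 0.05 and of groups that do not overlap were also recomputed under settings chosen after seeing the data, as were marker sums without vesicle genes.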

Additional observations from a re-analysis of the deposited data

How the results depend on the processing

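No member passed edgeR's threshold under other scalings, other filters, limma-voom, the replicate block or a threshold of 0.10. DESeq2 called 2 members, and leaving out 1 library gave 0 to 2. Over all genes, DESeq2 called 107, limma-voom 1, the fit with the replicate block 0 and fits without 1 library 0 to 41, with 0 when any control or stress replicate 3 was left out, 28 without stress replicate 2 and 41 without stress replicate 1. Members lower at an unadjusted p under 0.05 numbered 6 to 9 when 1 library was left out, with 6 without control replicate 1, beside 3.2% to 6.13% of all tested genes. Those higher numbered 2 with no filter, 2 with DESeq2, 0 with limma-voom and 0 to 4 when 1 library was left out, beside 3.65%, 2.86%, 3.55% and 2.63% to 5.4% of all tested genes. The deviations of same-numbered libraries correlated at 0.139, -0.0033 and 0.047, and those of differently numbered libraries between -0.154 and 0.121. With 3 libraries per group, these values cannot decide whether the replicate numbers pair the libraries. With the block, 9 members were lower and 1 higher at an unadjusted p under 0.05, beside 4.91% and 4.33% of all tested genes.

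Log2 fold changes of 27 of the 63 tested members, none beyond 0.14 in size with all libraries, changed sign when 1 library was left out, and the cause was not tested. Values are given for members named by the rule or in a paralog pair and not for the others, and the lowest and highest were -0.10 and 0.18 for Cplx1, -0.0016 and 0.10 for Rab3a, -0.00039 and 0.21 for Rab3c, -0.065 and 0.14 for Rims1, -0.15 and 0.032 for Snap23, -0.12 and 0.11 for Snap25, -0.0093 and 0.26 for Syn2, -0.058 and 0.056 for Syt1, -0.14 and 0.060 for Syt7, -0.076 and 0.039 for Unc13b, and -0.21 and 0.016 for Vamp2. Log2 ratios did so for Cplx1/Cplx2 (-0.32 and 0.12), Syt7/Syt1 (-0.16 and 0.080) and Rab3c/Rab3a (-0.078 and 0.19). Rims1 was -0.0010 with upper quartile scaling, -0.012 with total counts and -0.00049 with no filter. The low counts of Rims3, Rims4, Cplx3, Syt6 and Vamp8 limit how small a difference in them could be seen.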
